A study of Caenorhabditis elegans with 3 samples.

Results

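Genes of the replication fork and of nucleotide supply were examined for LIN-15B binding, across 10 members: pcn-1, rfc-1, rfc-2, rfc-3, rfc-4, rpa-1, rpa-2, div-1, rnr-1 and rnr-2. They are 10 of 19973 protein-coding genes and were listed by function, though with earlier results of these data known, so their counts are descriptions and not independent evidence. Chromatin immunoprecipitation followed by sequencing (ChIP-seq) was run on whole Caenorhabditis elegans L1 larvae, with male and female animals pooled, of strain OP184. The strain carries the integrated transgene wgIs184, a fusion of lin-15B with eGFP, in the unc-119(tm4063) III background, and the age of the animals is given as unknown. The labels form 1 group of 3 biological replicates with no control sample among them, so no comparison between groups was made and no cell type can be singled out. The CGC stock centre is the source of replicates 1 and 2, with a size range of 150 to 350 bp. For replicate 3 the source is the laboratory itself, the chromatin was sonicated with a microtip, and the line is noted to carry a GFP-FLAG tag at the C terminus. The antibody label names lin-15B, and the labels give neither the promoter of the transgene nor the cells that express it.

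LIN-15B belongs to the synMuv B regulators, known in worms for keeping germline genes silent in the soma and for acting beside the DREAM complex, a repressor with E2F and retinoblastoma subunits. At a replication fork, the clamp encoded by pcn-1 (PCNA) holds the polymerase on DNA, and the clamp loader, built from the RFC subunits, opens and places that clamp. RPA coats the exposed single strand, the polymerase alpha and primase complex, with div-1 as its B subunit, starts each new strand, and ribonucleotide reductase makes the deoxynucleotides that are built in. In many animals such genes are known E2F targets.

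Each deposited list holds 30000 peaks, background included, so a listed peak by itself says little. Peaks are given by their rank within a list, where rank 1 is the highest of the authors' signal values, because those values are not comparable between lists. A q score of at least 2 was given to 538, 3083 and 2206 peaks in replicates 1, 2 and 3, and read depth is unknown. The leading sites of pcn-1 and rfc-4 carried the highest q score of every list, a value tied over many peaks. A gene window runs from 1000 bp upstream of the gene to its end, and a promoter from 500 bp upstream to 200 bp downstream of a transcript start. The leading site of a gene is the series-wide peak of best rank in its window, matched to the strongest overlapping peak of each replicate. A site is called consistent when its irreproducible discovery rate (IDR), a score of rank agreement between replicates, is 0.05 or less in all 3 replicate pairs. Positions are on ce11, counted from 1.

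The sequences of 6 leading sites, from RefSeq (WBcel235, the same assembly as ce11), show what lay under some of the strong and weak peaks at these genes. Those of pcn-1, rfc-4 and div-1 were the consistent sites. Those of rnr-1, rnr-2 and rpa-1 hold several motif words. The rnr-1 site passed in 2 of 3 pairs, and the rnr-2 and rpa-1 sites passed in none. These 3 do not stand for all weaker sites, since the rfc-3 site, not printed, held no E2F-like word. Each stretch reaches up to 60 bp either side of the series-wide summit and reads 5′ to 3′ on the strand of the gene. Capitals mark matches, on either strand, to an E2F-like word (TTCCCGC or TTCGCGC or TTGCCGC or TTGGCGC), a CHR-like word (TTCGAA or TTTGAA) or the 6-mer GAGCGC.
pcn-1, chrIV:4049648-4049768, minus strand: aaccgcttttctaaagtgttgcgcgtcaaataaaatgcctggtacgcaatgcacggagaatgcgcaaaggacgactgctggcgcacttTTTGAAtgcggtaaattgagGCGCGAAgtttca
rfc-4, chrIII:6972040-6972160, plus strand: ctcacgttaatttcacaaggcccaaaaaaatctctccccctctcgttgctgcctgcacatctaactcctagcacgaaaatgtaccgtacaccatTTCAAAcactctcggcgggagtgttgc
div-1, chrIII:10248563-10248683, minus strand: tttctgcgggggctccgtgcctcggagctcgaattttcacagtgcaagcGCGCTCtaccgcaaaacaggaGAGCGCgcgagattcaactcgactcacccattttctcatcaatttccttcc
rnr-1, chrIII:9228339-9228459, minus strand: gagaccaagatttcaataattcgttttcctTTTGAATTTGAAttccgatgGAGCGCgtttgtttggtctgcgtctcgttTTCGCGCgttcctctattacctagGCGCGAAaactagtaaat
rnr-2, chrIII:4095596-4095716, minus strand: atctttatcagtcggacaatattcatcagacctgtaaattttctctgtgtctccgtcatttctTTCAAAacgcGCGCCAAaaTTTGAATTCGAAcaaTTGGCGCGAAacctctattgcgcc
rpa-1, chrII:7664383-7664503, plus strand: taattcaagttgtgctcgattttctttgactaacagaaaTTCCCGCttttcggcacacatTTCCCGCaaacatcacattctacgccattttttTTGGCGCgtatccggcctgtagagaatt

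The LIN-15B signal differed widely among these genes. The promoters of pcn-1, rfc-4 and div-1 held a consistent peak, 3 of the 10 genes (30.0%), where 5.26% of all protein-coding genes (1051 of 19973) did. The sites of pcn-1 and rfc-4 were among the stronger ones of the series, with mean ranks of 170 ± 111 and 130 ± 93.9 (SD, n = 3). The div-1 site was weaker, at 1374 ± 440 (SD, n = 3). Every gene had some series-wide peak in its window, 10 of 10, but so did 66.8% of all genes. In every replicate 9 of 10 had a peak in the window, against 38.7% of all genes. Those peaks may lie at different places in the window, and only 6 leading sites were matched in all 3 replicates. With a q score of 2 or more in every replicate the count was 2 of 10, against 3.86% of all genes. A peak of the series-wide top 1000 lay in the window of 4 of 10 (pcn-1, rfc-2, rfc-4 and rnr-1), against 7.12% of all genes. The best series-wide rank in the window had a median of 1177 over the 10 genes and of 9157 over the 13334 genes with any peak. Longer genes have longer windows, and these counts were not adjusted for length.

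**Figure D1:**
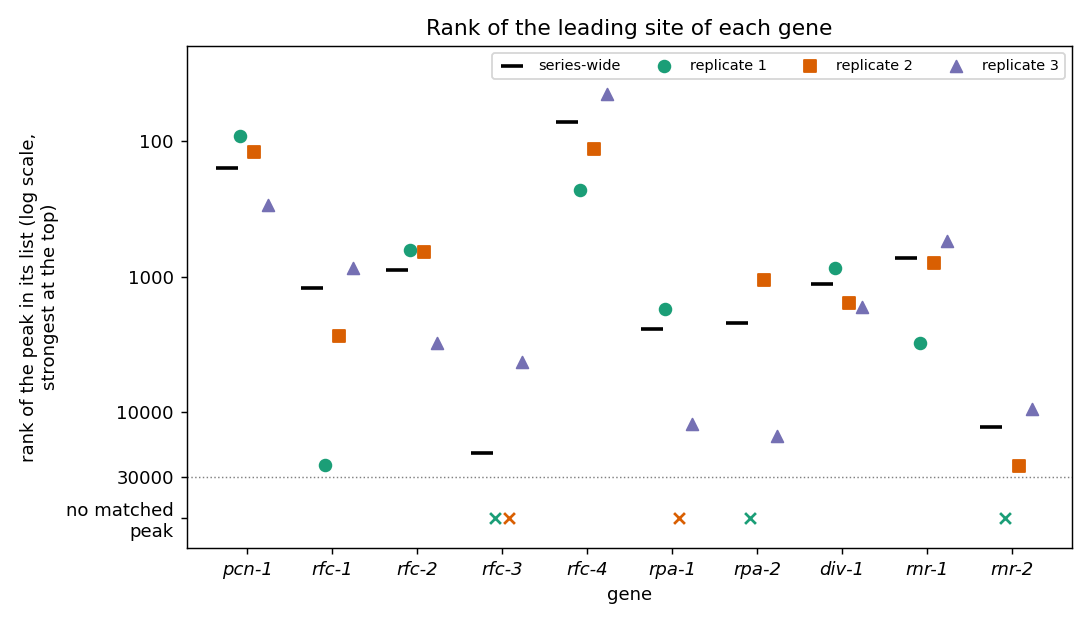
Rank of the leading site of each gene (log scale, strongest at the top) in the series-wide list (bars) and in replicates 1, 2 and 3 (symbols); crosses mark replicates with no overlapping peak. The sites of rfc-4 and pcn-1 rank between 45 and 297 in every list, and rfc-1, rfc-2 and rnr-1 each have 1 replicate far below the others.

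The sliding clamp gene pcn-1 (WBGene00003955, chromosome IV, 4047937 to 4049448, minus strand) had a single peak in its window in each of the 4 lists. It ranked 92, 121 and 297 in replicates 1, 2 and 3, with authors' signal values, each on the scale of its own list, of 68.3, 53.4 and 63.8, and 159 in the series-wide list. Replicate 3 placed it lowest, and all 3 ranks lie in the top 300 of 30000. The summit lay 260 bp upstream of the transcript start, between genes, and moved by 29 bp at most among the lists. No other protein-coding gene had this summit in its window or promoter. The IDR was 1.53e-06, 1.95e-05 and 1.12e-05 for replicates 1 and 2, 1 and 3, and 2 and 3.

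The clamp loader genes spanned nearly the whole range of ranks. At rfc-4 (WBGene00004340, chromosome III, 6972253 to 6973717, plus strand), which encodes a small loader subunit, the leading site ranked 231, 115 and 45 in replicates 1, 2 and 3. Its signal values were 41.0, 53.8 and 163, again each on its own scale, and replicate 3 ranked it highest of the replicates, unlike pcn-1. The summit lay 153 bp upstream of rfc-4 and moved by 16 bp at most. It also lay 388 bp upstream of eef-1A.1, the divergent gene of a translation elongation factor, and inside that gene's promoter, so the peak cannot be given to either gene alone. By mean rank it stood at place 116 of 926 consistent peaks. The promoter peaks next to it were those of cpsf-1, at place 115 with ranks of 87, 119 and 177 in replicates 1 to 3, and of eif-3.B, at place 117 with ranks of 105, 177 and 109.

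At rfc-2 (WBGene00004338, chromosome IV, 1347314 to 1352977, plus strand), a gene of another small loader subunit, the site 128 bp upstream of the start ranked 633, 661 and 3099 in replicates 1, 2 and 3. Replicate 3 was lower than the others. It ranked 892 in the series-wide list. The IDR was 7.50e-04 for replicates 1 and 2 but 0.0867 and 0.0563 for the pairs with replicate 3, so the site stood outside the limit. With replicate 3 left out it passed.

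At rfc-1 (WBGene00004337, chromosome V, 14642667 to 14645979, minus strand), which encodes the large loader subunit, the highest and lowest replicate rank differed 28.4-fold, the widest ratio among the 6 sites matched in every replicate. The leading site, 21 bp upstream of the outermost of 3 transcript starts, ranked 24414, 2720 and 861 in replicates 1, 2 and 3. Replicate 1 thus placed it in the lower part of its list, with a q score of 0.0300. In replicate 3 it carried the highest q score of that list, a value tied over 1425 peaks. The pair of replicates 2 and 3 passed with an IDR of 0.0201, and the pairs with replicate 1 did not, at 0.804 and 0.812. The summit was 739 bp upstream of the divergent gene pmp-3. Its position moved by 36 bp at most.

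The small subunit gene rfc-3 (WBGene00004339, chromosome IV, 13095762 to 13096997, plus strand) was the only 1 of the 10 with no peak in its window in replicates 1 and 2. Replicate 3 listed a peak of rank 4267, 173 bp upstream, and the series-wide list a peak of rank 20017, 137 bp upstream. No IDR could be computed for it.

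At both genes of the single-strand binding protein, no series-wide site in the window passed the IDR limit in any replicate pair. At rpa-1 (WBGene00017546, chromosome II, 7664582 to 7667110, plus strand), the large subunit, the site 139 bp upstream ranked 1736 in replicate 1 and 12167 in replicate 3, and replicate 2 had no overlapping peak. The strongest peak of replicate 2 in this window, of rank 4239, lay in an exon 1038 bp downstream of the start. The IDR of the leading site for replicates 1 and 3 was 0.579. The series-wide rank of the site was 2445, and its summit lay 689 bp upstream of the divergent gene F18A1.7.

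At rpa-2, which encodes a smaller RPA subunit (WBGene00019767, chromosome I, 4770292 to 4771358, plus strand), the site 237 bp upstream ranked 1052 in replicate 2 with a q score of 3.48. It ranked 14809 in replicate 3 with a q score of 0.179 and had no overlapping peak in replicate 1. Replicate 2 alone placed it high. The IDR for replicates 2 and 3 was 0.604. A further series-wide site, of rank 16267 and 759 bp upstream, overlapped a peak in every replicate. These peaks ranked 7800, 1726 and 6893 in replicates 1, 2 and 3, with summits 618, 611 and 863 bp upstream, and for replicates 1 and 3 they were the best in the window. The IDR of this site was 0.386, 0.313 and 0.169 for replicates 1 and 2, 1 and 3, and 2 and 3.

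The primase-complex gene div-1 (WBGene00001002, chromosome III, 10245056 to 10248559, minus strand) had the most even ranks of the 6 sites matched in every replicate, 870, 1570 and 1681 in replicates 1, 2 and 3, a ratio of 1.93 between highest and lowest. The IDR was 0.0176, 0.0165 and 0.00810 for replicates 1 and 2, 1 and 3, and 2 and 3, all inside the limit of 0.05. The q score in replicate 1 was 0.978, and it was 2.80 and 2.83 in replicates 2 and 3. The summit lay 64 bp upstream of div-1 and 488 bp upstream of the divergent gene cor-1, which encodes coronin, an actin-binding protein. It lay in both promoters in the series-wide list, while the replicate summits moved by 23 bp at most and those of replicates 2 and 3, at 511 and 504 bp, fell just outside the promoter of cor-1. Replicate 2 also listed a separate peak of rank 4133, with a q score of 1.63, in an exon of cor-1. Its summit lay 24 bp downstream of the cor-1 start, inside that promoter, and 595 bp upstream of div-1.

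The ribonucleotide reductase genes differed from each other. At rnr-1 (WBGene00004391, chromosome III, 9225339 to 9228798, minus strand), the large subunit, the site ranked 3101, 787 and 551 in replicates 1, 2 and 3 and 731 in the series-wide list. Replicate 1 was the low one, with a q score of 0.132 against 3.48 and 3.45 in replicates 2 and 3. The gene has 2 annotated transcript starts, and the summit lay 149 bp upstream of the inner one and 399 bp downstream of the outer one, in an intron of the longer transcript. The IDR was 0.101 for replicates 1 and 2, 0.0448 for 1 and 3, and 2.84e-04 for 2 and 3, so 2 of 3 pairs passed. The summit of replicate 1 differed from the others and the spread was 82 bp. No other protein-coding gene shared the site. Replicate 1 also listed a peak of rank 4032 in an exon, 227 bp downstream of the inner start.

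At the small reductase subunit gene rnr-2 (WBGene00004392, chromosome III, 4093308 to 4094921, minus strand), only weak peaks were listed. The best ranks in its window were 5312, 24856 and 9396 in replicates 1, 2 and 3. The leading series-wide site, of rank 12816, lay 735 bp upstream, outside the promoter of rnr-2 and inside that of the divergent gene C03C10.7, 389 bp from its start. Replicate 1 had no peak overlapping it, and its best peak lay 261 bp upstream of rnr-2. The IDR for replicates 2 and 3 was 0.584. Inside the promoter of rnr-2, 81 bp upstream, the series-wide list held a weaker peak, ranked 20317. That peak overlapped the best peak of replicate 1 and, in replicate 3, a peak ranked 25321, but none in replicate 2. With an IDR of 0.792 for replicates 1 and 3, this weaker site did not pass either.

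**Figure D2:**
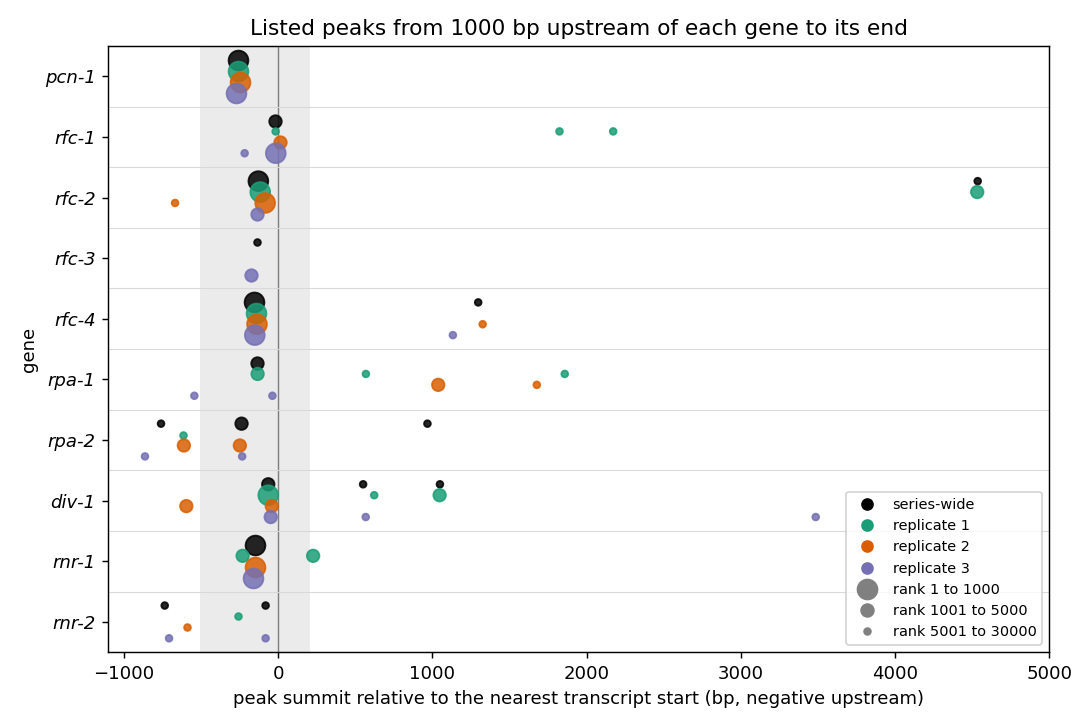
Position of each listed peak summit relative to the nearest transcript start of the gene (bp, negative upstream), by list (colour) and rank class (dot size); the grey band is the promoter. The 16 peaks of rank 1000 or better, from 6 genes, lie in the band, and peaks outside the band are of lower rank; those of rnr-1 in the band lie in an intron of its longer transcript.

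The leading site was in the promoter for 9 of 10 genes, where it was for 39.4% of the 13334 genes with a series-wide peak and for 81.9% of the 1423 genes with one in the top 1000. It lay from 21 to 260 bp upstream of the nearest start with a median of 139 bp, and rnr-2 was the exception. The 4 lists held 65 peaks in the 10 windows, 36 in a promoter of the gene (55.4%, against 27.7% over all genes) and 29 outside it. The series-wide list was made from the alignments of all 3 replicates, so these entries repeat sites and are not independent. By list, 10 of 17 peaks were in a promoter in the series-wide list. In replicates 1, 2 and 3 these were 8 of 17, 7 of 14 and 11 of 17. Peaks of rank 1000 or better numbered 16, but they are the sites of 6 genes seen again in up to 4 lists, with 4 each from pcn-1 and rfc-4, 3 each from rfc-2 and rnr-1, and 1 each from rfc-1 and div-1. None of the 29 ranked in the top 1000 of its list, and the best of them was the peak of rank 1726 at rpa-2. Of the peaks inside the genes, an intronic peak of rfc-2 ranked 2910 in replicate 1, 4532 bp downstream of the start, and 16112 in the series-wide list, at 4535 bp. A peak in an exon of div-1 ranked 4651 in replicate 1, 1047 bp downstream of the start, and 5631 in the series-wide list, at 1049 bp. At rfc-4 a weak exonic peak ranked 6935 in replicate 3, 1133 bp downstream of the start, and 24802 in the series-wide list, at 1297 bp. The series-wide summit also lay 432 bp upstream of the gene F31E3.2, inside its promoter. A replicate 2 peak of rank 25652 lay in that promoter too, while the replicate 3 summit, 596 bp upstream of F31E3.2, did not.

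The E2F-like words were frequent at the leading sites. In windows of 201 bp centred on the summit, 7 of 10 sites (70.0%) held at least 1, against 25.2% of the 926 consistent peaks and 7.28% of all 30000 series-wide peaks. Windows from 250 to 50 bp upstream of all protein-coding genes held one in 6.89%. These are descriptions with no test. Of the 3 consistent sites 1 held such a word (pcn-1), and 6 of the other 7 sites did. The sites of rpa-1 and rnr-2, with weak peaks, held 3 each, of which a pair overlaps at rnr-2. Their series-wide q scores were 0.253 and -0.125, and that of rpa-2, which held 1 word, was 0.458. The share of 70.0% thus includes sites with little evidence of binding. The rnr-2 site, 735 bp upstream, is outside the promoter of rnr-2 and inside that of C03C10.7. The sites of rfc-4, the strongest by mean rank, and of div-1 and rfc-3 held none. The 13 matches lay from 3 to 75 bp from the summit. At pcn-1 and at rnr-1 the word TTCGCGC stood at 2 places.

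The CHR-like words, of the kind named for the cell cycle genes homology region, stood in 9 of 10 sites (90.0%), with div-1 the exception. They were common everywhere, in 53.9% of consistent peaks, 55.5% of all series-wide peaks and 55.9% of upstream windows. The 6-mer GAGCGC stood at 3 of 10 sites, div-1, rnr-1 and rpa-2, against 31.4% of consistent peaks, 4.66% of all series-wide peaks and 3.93% of upstream windows, and it was picked because earlier results on these peaks led with it. At div-1 it occurred at 2 places, 12 and 9 bp from the summit.

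**Figure D3:**
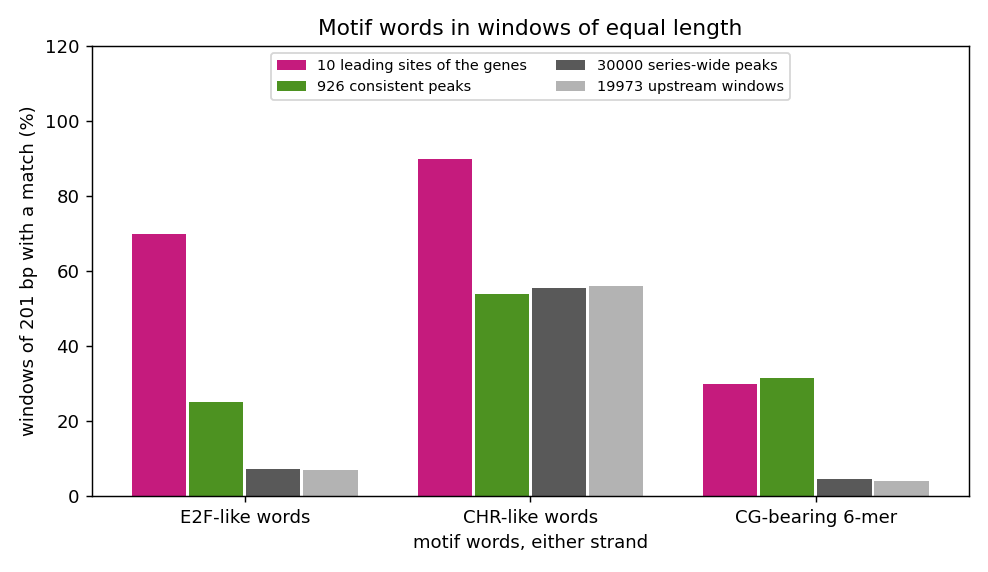
Share of 201 bp windows (%) with at least 1 match to the E2F-like words, the CHR-like words or the 6-mer, at the 10 leading sites, the 926 consistent peaks, all 30000 series-wide peaks and the upstream windows of all protein-coding genes. The leading sites stand at 70.0% for the E2F-like words, and the upstream windows at 6.89%. Of the 3 consistent leading sites 1 held such a word, and 6 of the other 7 did.

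The GC content of the leading sites ran from 30.8% at rpa-2 to 46.3% at div-1, with a median of 39.6%, against 41.3% for consistent peaks and 33.8% for upstream windows. The ratio of observed to expected CpG had a median of 1.60 at the leading sites, 1.42 at consistent peaks and 1.03 in upstream windows. It was above 1.03 at 9 of 10 sites, from 1.36 at div-1 to 2.04 at rfc-3, which had the weakest series-wide peak. The exception was rfc-4, at 0.798. Since each E2F-like word holds a CG, the word counts and the CpG ratio are not independent measures.

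A list of 27 other genes of the fork and of nucleotide supply was set beside the 10. Among the 10 genes 3 had a consistent promoter peak, among these 27 genes 7 (25.9%) did, and the share over all genes was 5.26%. The 7 genes were ndk-1, a nucleoside diphosphate kinase gene, top-2, a topoisomerase gene, ctf-4, pola-1, the catalytic subunit of polymerase alpha, clsp-1, the claspin gene, tim-1 and pold-1, the catalytic subunit of polymerase delta. The peak of ndk-1 was the strongest, with ranks of 14, 13 and 18 in replicates 1, 2 and 3, and a mean of 15.0 ± 2.65 (SD, n = 3), a better rank than any of the 10 genes had. The mean ranks were 107 ± 29.5 for top-2, 148 ± 52.3 for ctf-4, 174 ± 12.2 for pola-1, 211 ± 73.4 for clsp-1, 257 ± 184 for tim-1 and 623 ± 310 for pold-1 (SD, n = 3). Within the polymerase alpha and primase complex, div-1 and pola-1 carried a consistent site, at mean ranks of 1374 and 174, and the primase genes pri-1 and pri-2 did not. The best series-wide ranks in the windows were nonetheless alike, 1176 for pri-1 and 816 for pri-2 against 1135 for div-1. With replicate 1 left out, pri-1 and pri-2 also had a consistent promoter peak.

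All 7 of those peaks also lay in the window or promoter of another protein-coding gene, as did 53.8% of the 756 consistent peaks in a promoter. The start of that gene lay nearer to the summit for top-2 (npp-3), ctf-4 (eef-1G) and clsp-1 (eef-2). Without a consistent promoter peak were pri-1, pri-2, pold-2, pole-1, pole-2, lig-1, crn-1, dna-2, top-1, ctf-18, psf-1, psf-2, psf-3, sld-5, mcm-10, tipn-1, rpa-4, dut-1, dhfr-1 and tyms-1. Of these, ctf-18, sld-5 and rpa-4 had no series-wide peak in the window at all.

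**Figure D4:**
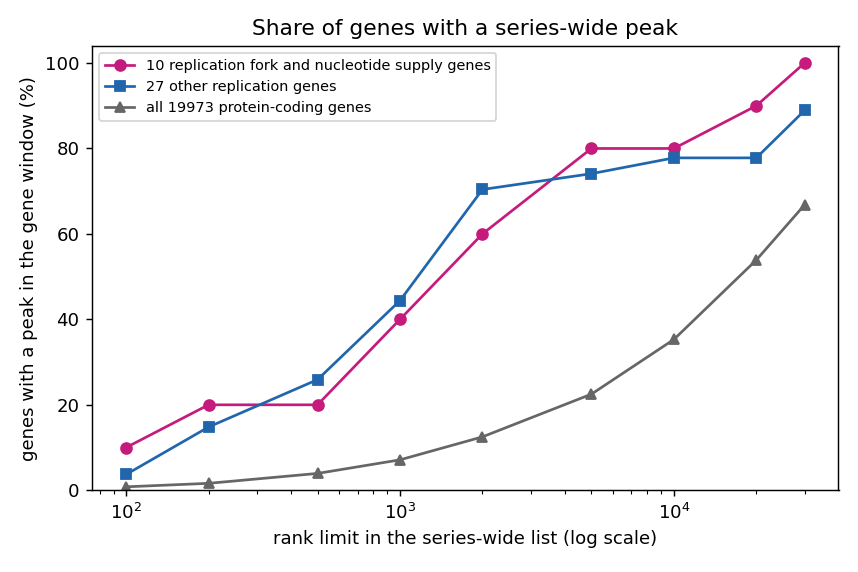
Share of genes (%) with a series-wide peak in the gene window at or above a rank limit (log scale), for the 10 replication fork and nucleotide supply genes, 27 other replication genes and all 19973 protein-coding genes. At a limit of 5000 the shares are 80.0%, 74.1% and 22.5%.

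Of the 3 replicates, leaving out replicate 1 moved the counts of consistent genes most. Without it, a single replicate pair is left, and rfc-1 and rnr-1 joined pcn-1, rfc-4 and div-1 to make 5 of 10 consistent genes, while the share of all genes was 9.22%. Among the other replication genes the count without replicate 1 was 16 of 27. With fewer pairs to pass, such counts can only stay or rise. Replicate 1 had the fewest peaks with a q score of at least 2, and the part of this in the counts was not tested.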

How the data were processed

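LIN-15B ChIP-seq peak lists of 3 biological replicates and 1 series-wide list, on ce11, were used. The lists on ce10 were not used here. Per the deposited records, each list was made from the alignments and a control file and holds peaks and background as input for IDR. The series-wide list came from the alignments of all 3 replicates. The authors' signal value ranked peaks within a list only (ties share the lower rank number), and the authors' q value is called a q score, because it falls below 0 in places. Aligner and caller: not given in the sources used here. Read depth is unknown, so no interval was computed.

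Genes and transcript starts came from Ensembl release 115 and sequences from RefSeq, both WBcel235. The IDR copula mixture was fitted to series-wide peaks matched in both replicates of a pair by an overlap of 1 bp or more, with ties in a seeded random order, using Python 3.11.15, numpy 2.4.6, pandas 2.3.3 and scipy 1.17.1. It was tested only on ranks simulated from the fitted model of each pair. That test cannot show whether the real ranks follow the model. The IDR limit left 926 consistent peaks. No adjusted p was computed, and the replicates' separate origin rests on the labels.

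The members, the list of other replication genes and the motif words were chosen with earlier results of these data known. Of 28 names in that list 1, cdc-45, had no match. The names pold-1 and pold-2 were matched through RefSeq (F10C2.4 and F12F6.7 in the Ensembl annotation). Named genes are all members, genes sharing their leading peaks, all genes of the second list, and the neighbours in mean rank of the best member. F31E3.2 is named for a weaker peak of rfc-4. Alternatives were other IDR limits, matching rules, promoter sizes, windows and rank limits, and leaving out each replicate.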

Additional observations from a re-analysis of the deposited data

How the results depend on the processing

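Of 46 recomputed values over 10 results, 37 stayed within 1.5 times the count reported, or within 1 SD over replicates for a mean rank, and 9 did not. These limits are wide, so the tally says little about stability. A count of 2 against 3 still falls within 1.5 times, and at rfc-1 the SD of 13095 exceeded the mean rank of 9332. Matching by summits within 100 bp left every mean rank unchanged, at sites whose summits moved by 82 bp at most. Leaving out each replicate in turn gave 4 to 5 members with a consistent promoter peak and 8 to 16 of the other replication genes. The 5 came without replicate 1, with rfc-1 and rnr-1 added, against 9.22% of all genes. A single pair is then left to pass, so these counts could only stay or rise. In the other settings tried, 2 to 4 members were consistent. An IDR of 0.01 left 2 (4.49% of all genes), and a q score of 2 or more in every replicate left 2 (3.22%). In both of these div-1 was lost. With the promoter cut to 250 bp before and 100 bp after the start 2 were left (3.52%), and pcn-1 was lost. At an IDR of 0.1 there were 4 (5.72%), with rfc-2 added. With the nearest transcript start only, 4 of the other genes were consistent instead of 7 (3.77% of all genes). Members with a series-wide peak in the window numbered 6 with a q score of 2 or more (9.79% of all genes) and 4 in the top 1000 (7.12%), and members with a peak in every replicate numbered 5 in the top 5000 (9.01%) and 2 with a q score of 2 or more (3.86%). Mean ranks by q score were 565 for both pcn-1 and rfc-4, which tie at the highest q score of each list. The unknown depth limits what the absence of a peak can show. No paired analysis was possible because the labels give a single group.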
